A study of Mus musculus with 7 samples.

Results

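The genes described here are 42 genes of DNA replication and S phase, the part of the cell cycle in which the genome is copied. They were taken as a fixed list of gene symbols and looked up among the 25033 symbols in the count files. All 42 were listed, and all 42 passed the filter on low counts that left 11265 genes for testing. RNA came from lin- cells, the bone marrow cells left after cells with markers of mature lineages are removed. These cells were isolated from femur and tibia of 6 to 8 week old mice after red blood cell lysis. The mice were 3 *HRP-2* wild type (Hrp2+/+, WT) and 4 *HRP-2* knockout (Hrp2-/-, KO) animals of the C57BL/6N strain with or without the tm1b knockout allele of *Hdgfrp2*, the gene of HRP-2. The knockout is systemic, so every tissue carries it, and the study describes the knockout mice of this age as survivors of early losses. No treatment is named. Per the methods, isolated cells were either put in culture or used for RNA. Each library is taken as 1 mouse, since the labels number them as biological replicates.

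Copying the genome begins when the origin recognition complex, CDC6 and CDT1 load the ring-shaped MCM2-7 helicase onto origins. CDC45, the GINS complex and MCM10 then turn the loaded ring into an active helicase, and primase and the replicative polymerases synthesise DNA with the help of the sliding clamp PCNA and its loader RFC. Many of these genes are transcribed in late G1 under the E2F transcription factors, and in bone marrow their RNA is a mark of cycling progenitors.

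Between 3525665 and 5605158 reads per mouse fell on genes. The deposited reads per gene were expressed here as CPM, counts per 1e6 reads scaled with the TMM factors of edgeR. The library kit reads 1 fragment near the 3′ end of each transcript, so CPM was not divided by gene length and is compared here between mice and not between genes. The targeted gene, *Hdgfl2* in the files, had 228, 156 and 168 reads in the wild type mice and 13, 3, 8 and 2 reads in the knockout mice. The fitted change was −5.09 on the log2 scale (standard error 0.34), with an adjusted p of 1.38e-07 in the quasi-likelihood test of edgeR, and the levels did not overlap (two-sided exact permutation test, p = 0.0286, the smallest that the 35 splits allow). Knockout replicate 3 stood apart from the other 6 mice. It had 0.561 CPM of *Xist*, the RNA of the inactive X chromosome, and 104.5 CPM of the Y-linked *Ddx3y*, whereas *Xist* stood between 229.0 and 302.8 CPM in the others. The labels give no sex.

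The lin- cells of both genotypes held replication transcripts. Together the 42 genes made up 0.477% to 0.545% of the gene reads of a library, and a single gene in a single mouse had from 13 reads (*Rfc4*) to 3747 reads, with a median of 309. The progenitor genes *Kit* and *Cd34* were present in every mouse, *Kit* between 85.1 and 122.0 CPM and *Cd34* between 184.9 and 283.6 CPM. *Mki67*, a marker of cycling cells, stood between 174.5 and 242.5 CPM. The summed level of the 42 genes was 4881, 5210 and 4926 CPM in wild type replicates 1 to 3 and 5038, 5013, 5374 and 5580 CPM in knockout replicates 1 to 4. The groups overlapped, since wild type replicate 2 lay above knockout replicates 1 and 2. The means were 5006 ± 178.4 CPM (SD, n = 3) and 5251 ± 274.0 CPM (SD, n = 4), a ratio of 1.05. A large part of this difference was *Lig1*, with means of 531.8 and 670.9 CPM. By role the ratio of the sums ran from 0.966 for nucleotide supply to 1.22 for *Fen1* with *Lig1*, and was 1.10 for the clamp and its loader.

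Sequence shared by these genes was looked for in their promoters. Of the 42 genes, 35 had a promoter window in the RefSeq table of GRCm38.p6, each of 250 bases before and 50 bases after a transcript start. E2F factors bind sites of the kind TTTCGCGC, TTTGGCGC, TTTCCCGC or TTTGCCGC. These 4 sequences were searched on both strands, with overlapping matches counted. At least 1 was present in the promoter of 14 of the 35 genes, 40.0%, against 4.98% of the 9003 tested genes with a window and 2.26% of all 32851 windows searched. The CCAAT box, searched on both strands as CCAAT, was present in 23 of the 35, 65.7%, against 43.2% of the tested genes and 37.4% of all windows. These are matches of letters and do not show that a factor was bound. The 4 promoters with an E2F match in the last 120 bases before the start are given as examples of the element. In the other 10 of the 14 genes the matches lay elsewhere in the window. They belong to a helicase subunit, an origin binding subunit, a clamp loader subunit and a GINS subunit. Each is written 5′ to 3′ on the strand of the gene with the match in capitals, and a match on the other strand appears as its reverse complement.
*Mcm6*, chr1:128359706-128359825, minus strand: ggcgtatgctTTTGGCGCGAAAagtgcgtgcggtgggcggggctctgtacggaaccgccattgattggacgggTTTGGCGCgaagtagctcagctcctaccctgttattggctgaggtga
*Orc1*, chr4:108579334-108579453, plus strand: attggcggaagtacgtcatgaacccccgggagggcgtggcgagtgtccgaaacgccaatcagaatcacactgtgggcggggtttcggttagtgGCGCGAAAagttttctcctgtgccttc
*Rfc3*, chr5:151651209-151651328, minus strand: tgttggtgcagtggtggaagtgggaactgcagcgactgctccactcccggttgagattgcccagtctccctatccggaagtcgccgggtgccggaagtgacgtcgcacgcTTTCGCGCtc
*Gins3*, chr8:95633439-95633558, plus strand: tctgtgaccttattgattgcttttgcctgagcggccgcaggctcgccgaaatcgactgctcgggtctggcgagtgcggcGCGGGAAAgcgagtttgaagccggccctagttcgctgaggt
The printed stretch of *Mcm6* holds 3 matches, of which the first and the second overlap on opposite strands, and those of the other 3 genes hold 1 each.

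To find out whether loss of HRP-2 changed the transcripts of the replication machinery, knockout and wild type mice were compared with edgeR's quasi-likelihood test over all genes. None of the 42 genes passed an adjusted p-value of 0.25, the threshold of the study, and the smallest adjusted p among them was 0.999. Across all genes tested, 2 passed it, 0.0178%. DESeq2 and limma-voom also called none of the 42. One gene of the 42, *Lig1*, had an unadjusted p under 0.05, against 3.63% of all genes, or 1.56% in the direction of *Lig1*, higher in knockout. Of the 42 genes, 27 had a fitted change above 0 and 15 below, and the median log2 fold change was 0.05, with a median of −0.00142 over all genes, of which 50.2% were below 0. With CPM compared directly, wild type and knockout mice did not overlap for 3 of the 42, 7.14%, against 5.16% of all genes. These were *Lig1*, *Tk1* and *Mcm3*, all with the knockout mice above, as for 2.37% of all genes.

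How large a change could have been missed is given by the 95% intervals of the fitted changes, taken gene by gene. For 39 of the 42 genes the interval lay within a 2-fold change either way, as it did for 74.5% of all genes. For 27 it lay within 1.5-fold either way, against 41.8% of all genes. The 3 genes with an interval past 2-fold were *Gins2*, *Rfc4* and *Rpa3*, each under 20 CPM on average, and for these the interval did not leave out a 2-fold change. All 33 genes with a mean of at least 20 CPM had an interval within 2-fold. The interval of *Lig1* was the only one of the 42 that left out 0.

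**Figure D1:**
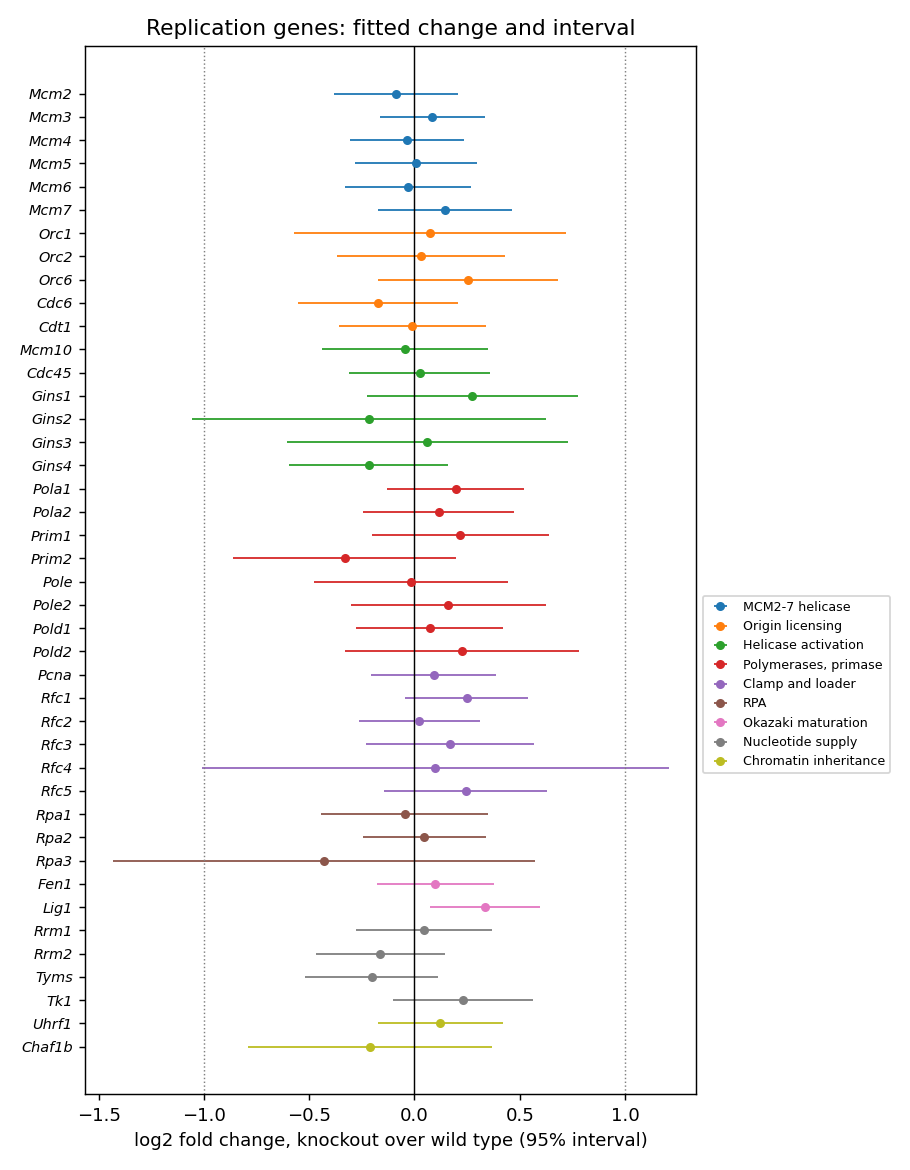
Fitted log2 fold change, knockout over wild type (x axis), of each of the 42 replication genes (y axis, coloured by role). Points are edgeR estimates from 3 wild type and 4 knockout mice, bars are 95% intervals not adjusted for multiple testing, and dotted lines mark a 2-fold change. Nearly all intervals cross 0, that of *Lig1* runs from 0.08 to 0.59, and those of *Gins2*, *Rfc4* and *Rpa3* pass a dotted line.

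The MCM2-7 ring, the motor that unwinds DNA at the fork, had fitted changes close to 0. Its 6 genes summed to 1911 ± 56.6 CPM in the 3 wild type and 1941 ± 77.7 CPM in the 4 knockout mice (± SD). Their fitted log2 changes ran from −0.09 to 0.15, 3 below 0 and 3 above, and every interval lay within 1.5-fold. *Mcm2* stood at 203.4, 285.3 and 239.1 CPM in the wild type mice and 217.1, 208.8, 251.7 and 234.5 CPM in the knockout mice. The knockout values all fell inside the wild type range, and the log2 fold change was −0.09 (standard error 0.14). *Mcm3* was nearly constant, at 355.8, 342.4 and 358.4 CPM in wild type and 375.3, 380.1, 369.2 and 370.7 CPM in knockout mice. Its knockout values lay above its wild type values without overlap, but the log2 fold change was only 0.09 (standard error 0.12, unadjusted p = 0.481 from edgeR's quasi-likelihood test). *Mcm7* had the largest fitted change of the ring, 0.15 (standard error 0.15), from 330.6, 381.6 and 289.1 CPM to 309.0, 324.4, 394.1 and 449.2 CPM. Those ranges overlapped, with the highest value in knockout replicate 4. The last exon of *Mcm7* shares 64 bases, from its 3′ end on, with the antisense gene *Cops6*, which had between 76.3 and 117.3 CPM. *Mcm7* also shares 321 bases with the antisense gene *Ap4m1*, at least 7419 bases of genome from that end, and exon sequence with *Mir25* and *Mir93* on its own strand. Their part in the *Mcm7* values was not tested, so its reads are uncertain.

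Origin licensing, the loading of the helicase in G1, depends on the origin recognition complex (*Orc1*, *Orc2*, *Orc6*), on *Cdc6* and on *Cdt1*. The 5 genes summed to 369.7 ± 37.1 CPM in the 3 wild type and 366.2 ± 31.6 CPM in the 4 knockout mice (± SD). *Orc6* had both the smallest p-value and the largest change among them. Its level was 25.9, 38.9 and 30.6 CPM in wild type and 36.0, 47.0, 32.7 and 35.6 CPM in knockout mice, with a log2 fold change of 0.25 (standard error 0.20). The highest wild type mouse lay above 3 of the 4 knockout mice. *Cdc6*, the ATPase that loads the ring with ORC, changed by a fitted −0.17 on the log2 scale (standard error 0.18), and *Cdt1*, which brings the ring to the origin, by −0.01 (standard error 0.17).

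The genes that turn the loaded ring into a moving helicase (*Cdc45*, *Mcm10* and the GINS subunits *Gins1* to *Gins4*) summed to 189.7 ± 8.33 CPM (SD, n = 3) and 185.4 ± 16.3 CPM (SD, n = 4). *Gins1* stood at 16.9, 12.9 and 14.3 CPM in wild type and 18.3, 18.7, 18.7 and 15.7 CPM in knockout mice. One knockout mouse, replicate 4, lay inside the wild type range, and the log2 fold change was 0.28 (standard error 0.24). *Gins4*, a subunit of the same complex, went the other way in its fitted value, −0.22 (standard error 0.18), at 43.2, 50.4 and 44.4 CPM against 31.3, 40.3, 41.9 and 44.8 CPM. Neither value passed the test. *Cdc45* was among the steadiest of the group, from 48.7 to 60.3 CPM over the 7 mice, with a log2 fold change of 0.02 (standard error 0.16).

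Polymerase alpha with primase starts each new strand, and polymerases epsilon and delta extend the leading and the lagging strand. The 8 genes of these enzymes summed to 372.8 ± 36.9 CPM in the 3 wild type and 403.3 ± 40.1 CPM in the 4 knockout mice (± SD), with fitted log2 changes from −0.33 to 0.23, of which 6 were above 0. *Prim2*, the large primase subunit, had both the smallest p-value and the largest change. Its values were 15.4, 26.6 and 18.3 CPM in wild type and 14.8, 18.1, 13.5 and 17.4 CPM in knockout mice (log2 fold change −0.33, standard error 0.25). Knockout replicates 1 and 3 lay below all wild type mice, and the other two lay between wild type replicates 1 and 3. Without wild type replicate 2, the highest, the log2 fold change was −0.08. The catalytic primase subunit *Prim1* had a fitted change of the opposite sign, 0.22 (standard error 0.20).

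The clamp PCNA holds the polymerases on DNA, and the 5 subunits of RFC open and load it. All 6 genes had a fitted change above 0, with a median of 0.13, and none passed the test. *Pcna* itself stood at 102.9, 86.8 and 107.9 CPM in wild type and 113.1, 103.5, 109.7 and 96.4 CPM in knockout mice. The ranges overlapped, and the log2 fold change was 0.09 (standard error 0.14). *Rfc1*, the large subunit of the loader, had the largest change of this group. It stood at 115.2, 140.0 and 117.7 CPM in wild type and at 138.2, 133.2, 159.8 and 159.7 CPM in knockout mice. Wild type replicate 2 lay above 2 of the knockout mice, and the log2 fold change was 0.25 (standard error 0.14, unadjusted p = 0.0897 from edgeR's quasi-likelihood test). Without wild type replicate 2 it was 0.34.

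RPA coats the single strands that the helicase leaves behind. *Rpa1* and *Rpa2*, which encode its large and middle subunits, had log2 fold changes of −0.05 (standard error 0.19) and 0.05 (standard error 0.14). *Rpa3*, the small subunit, had the largest fitted change of the 42 genes and the highest coefficient of variation among wild type mice, 73.8%. Its values were 6.14, 8.12 and 22.9 CPM in wild type and 7.77, 15.4, 8.97 and 4.24 CPM in knockout mice (log2 fold change −0.43, standard error 0.47). The ranges overlapped, and the sign rested on 1 mouse, since without wild type replicate 3 the value was 0.36.

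Okazaki fragments are joined by FEN1, which trims the flap, and by DNA ligase 1, which seals the nick. *Lig1*, on chromosome 7 from 13277283 to 13311433 of GRCm38, was the replication gene with the smallest p-value. Its level was 555.0, 497.0 and 543.4 CPM in wild type and 659.8, 614.3, 700.1 and 709.3 CPM in knockout mice. All 4 knockout mice lay above all 3 wild type mice. The means were 531.8 ± 30.7 CPM (SD, n = 3) and 670.9 ± 43.5 CPM (SD, n = 4), a fitted 1.26-fold difference with a 95% interval of 1.05 to 1.51. On the log2 scale this was 0.34 (standard error 0.12), with an unadjusted p of 0.0143 and an adjusted p of 0.999 in the quasi-likelihood test of edgeR, so that the difference did not pass the threshold over all genes. It stayed above 0 in each of 16 other fits, from 0.29 to 0.37, with adjusted p-values from 0.746 to 1.00. *Lig1* shares 247 bases of exon with the antisense gene *Zswim9*. That stretch is at least 33904 bases of genome away from the 3′ end, where the reads of this kit fall. *Zswim9* had at most 4.17 CPM in any mouse, and its part in the *Lig1* values was not tested. *Fen1* stood within 158.1 to 161.3 CPM in wild type and 154.7 to 195.8 CPM in knockout mice (log2 fold change 0.10, standard error 0.13).

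**Figure D2:**
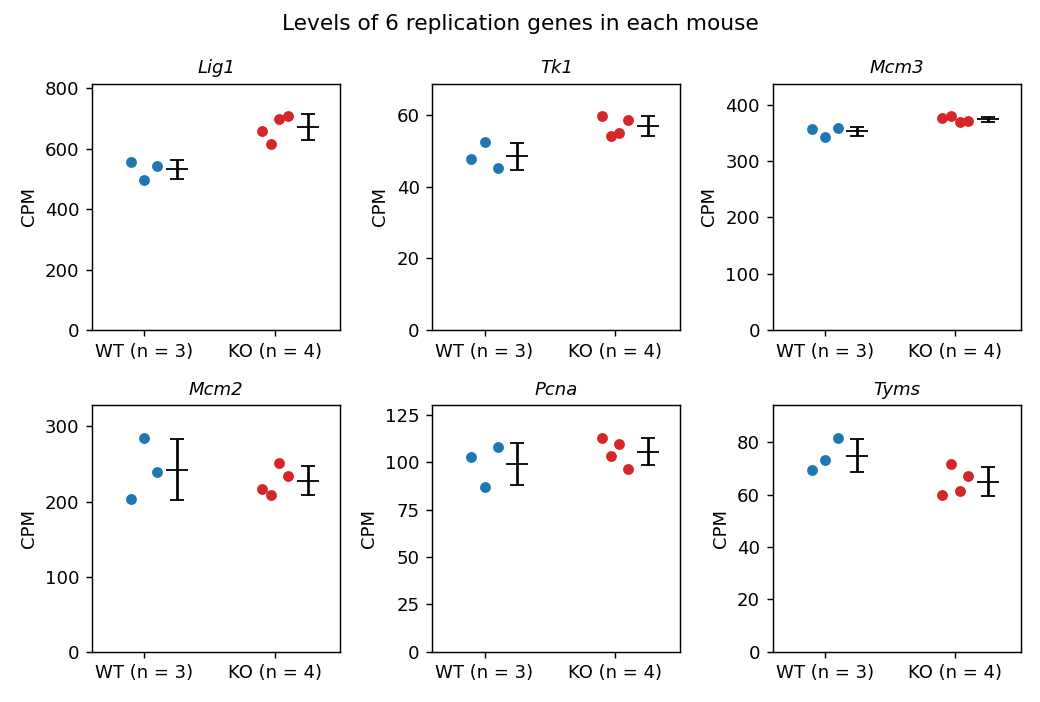
CPM (y axis, from 0) of *Lig1*, *Tk1*, *Mcm3*, *Mcm2*, *Pcna* and *Tyms* in each wild type (blue) and knockout (red) mouse, with mean and SD in black. In the top row the 2 genotypes do not overlap, with *Lig1* between 497.0 and 555.0 CPM in wild type and 614.3 and 709.3 CPM in knockout mice, and in the bottom row they overlap.

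Nucleotides for the new strands come from ribonucleotide reductase (*Rrm1*, *Rrm2*), thymidylate synthase (*Tyms*) and thymidine kinase 1 (*Tk1*). The 4 genes summed to 475.3 ± 48.1 CPM in the 3 wild type and 459.2 ± 49.3 CPM in the 4 knockout mice (± SD), and each interval lay within 1.5-fold. The 2 routes to thymidylate had fitted changes of opposite sign. *Tk1*, the salvage enzyme, stood at 47.8, 52.6 and 45.2 CPM in wild type and 59.9, 54.2, 54.9 and 58.8 CPM in knockout mice, without overlap (log2 fold change 0.23, standard error 0.16, unadjusted p = 0.161 from edgeR's quasi-likelihood test). An exon of *Tk1* shares 83 bases with the antisense gene *Afmid*, at least 10398 bases of genome from the 3′ end of *Tk1*. *Afmid* had between 5.04 and 14.5 CPM, and its fitted change was 0.77 on the log2 scale (standard error 0.33). Its part in the *Tk1* values was not tested. *Tyms*, the enzyme of de novo synthesis, stood at 69.5, 73.1 and 81.8 CPM and 59.9, 71.7, 61.3 and 67.0 CPM (log2 fold change −0.20, standard error 0.15). Only knockout replicate 2 lay inside the wild type range of *Tyms*. *Rrm2*, the S phase subunit of the reductase, had values of 172.4, 209.7 and 181.5 CPM in wild type and 146.1, 148.2, 175.3 and 202.6 CPM in knockout mice (log2 fold change −0.16, standard error 0.15), with overlapping ranges.

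*Uhrf1*, which guides DNA methylation to the new strand, and *Chaf1b*, a subunit of the histone chaperone CAF-1, carry chromatin marks through S phase. *Uhrf1* lies on chromosome 17, 202.7 kb from the end of the targeted *Hdgfl2*. Its level was 96.1, 100.5 and 100.2 CPM in wild type and 112.7, 91.4, 105.8 and 121.1 CPM in knockout mice, and the knockout mice fell on both sides of the wild type (log2 fold change 0.12, standard error 0.14). *Chaf1b* stood at 14.5, 14.0 and 17.5 CPM and 15.2, 10.6, 9.90 and 17.4 CPM (log2 fold change −0.21, standard error 0.28).

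**Figure D3:**
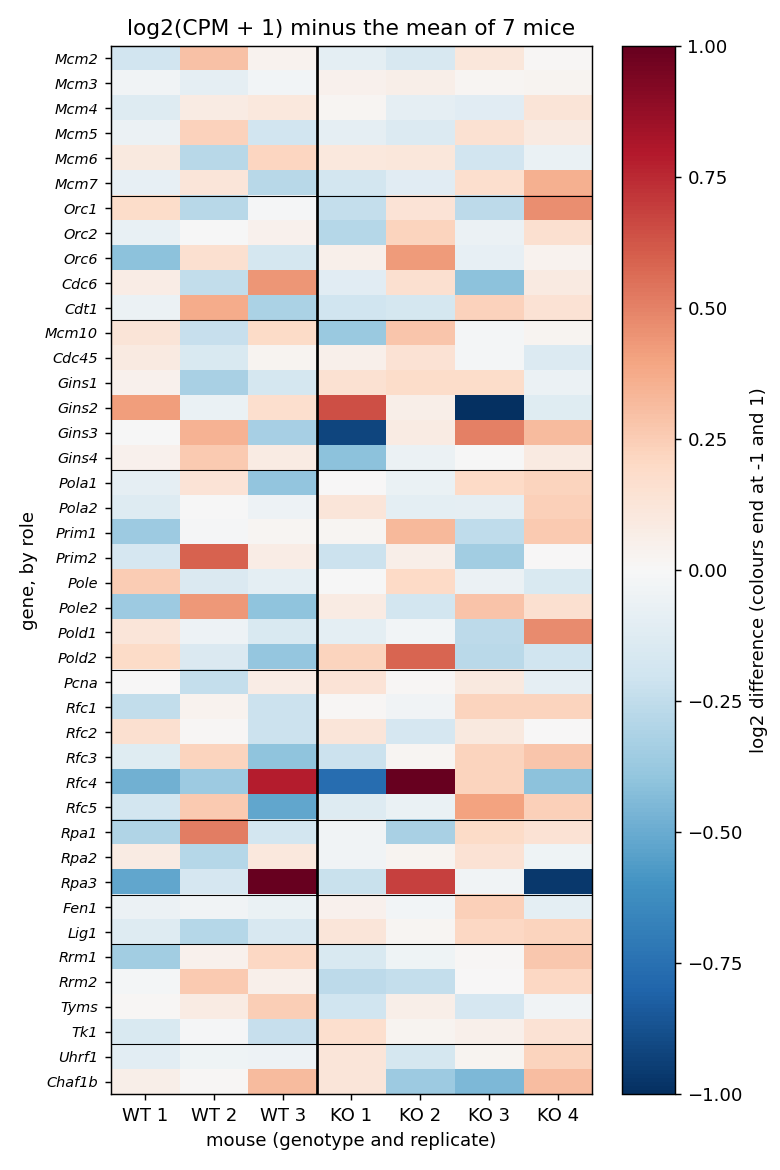
Level of each replication gene (rows, grouped by role) in each mouse (columns, 3 wild type left of the line and 4 knockout right of it), as log2(CPM + 1) minus the mean of the 7 mice. The rows of one role do not change colour together at the line between genotypes, and the strongest colours belong to *Gins2*, *Gins3*, *Rfc4* and *Rpa3*, which have few reads.

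These genes also varied among mice of the same genotype. The median coefficient of variation of the 42 genes was 14.9% among wild type and 13.6% among knockout mice. Knockout replicate 4 had the highest level of the 7 mice for 10 of the 42 genes, knockout replicate 2 for 9, and wild type replicate 2 for 8, while wild type replicate 1 was highest for 2. Wild type replicate 3 was most often the lowest, for 10 genes, followed by wild type replicate 2 for 8. Within the helicase ring, *Mcm5* was highest and *Mcm6* lowest in wild type replicate 2 among wild type mice (366.8 and 354.2 CPM) and in knockout replicate 3 among knockout mice (347.2 and 375.6 CPM). With each mouse left out in turn, the fitted log2 change ran from 0.04 to 0.25 for *Mcm7*, from 0.13 to 0.42 for *Orc6*, from 0.01 to 0.16 for *Pcna* and from −0.49 to −0.08 for *Prim2*. It ran from −0.28 to −0.12 for *Gins4*, from −0.26 to −0.07 for *Rrm2*, from −0.25 to −0.13 for *Tyms*, from 0.06 to 0.19 for *Uhrf1* and from −0.37 to −0.09 for *Chaf1b*.

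The libraries differed in the share of reads on *Rn45s*, the precursor of ribosomal RNA, which was 11.8%, 20.6% and 9.43% in wild type and 4.94%, 9.21%, 13.6% and 18.6% in knockout mice. When this share was added to the model as a covariate, a choice made after the data had been seen, 4 of the 42 genes, 9.52%, had a slope on it past an adjusted p of 0.25, against 4.77% of the 11274 genes in that fit, and all 4 slopes were positive, as for 2.21% of those genes. *Mcm7*, *Cdt1*, *Rfc5* and *Rpa1* were higher where the share was larger, by 0.38, 0.42, 0.46 and 0.42 on the log2 scale per 10 percentage points (standard errors 0.11, 0.12, 0.14 and 0.14), with adjusted p-values of 0.157, 0.157, 0.164 and 0.211 in the edgeR test. *Mcm6* had a slope of −0.29 (standard error 0.12, adjusted p = 0.293 from the same test). None of the slopes passed 0.05. With the covariate, the genotype effect passed the threshold in 0 of the 42 genes, the smallest adjusted p being 0.974, and *Lig1* stood at 0.33 on the log2 scale. What part the *Rn45s* share had in the spread between mice was not tested.

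**Figure D4:**
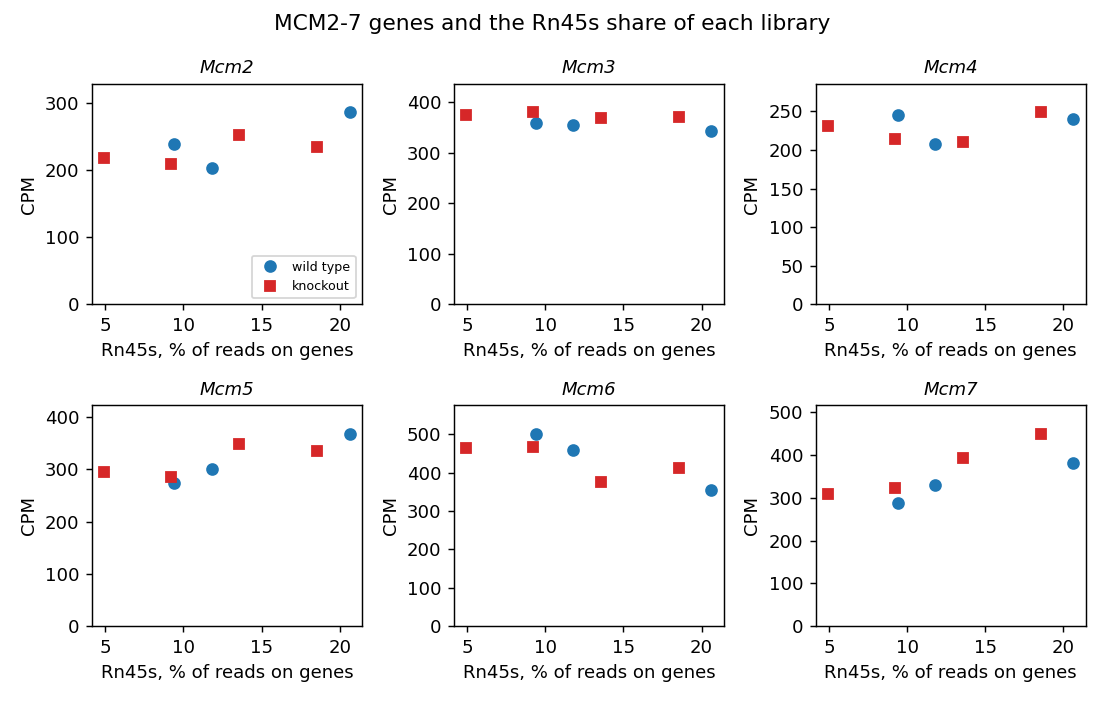
CPM of the 6 MCM2-7 genes (y axes, from 0) against the percent of reads on genes taken by *Rn45s* in the same library (x axes), for 3 wild type (circles) and 4 knockout (squares) mice. *Mcm7* lies higher and *Mcm6* lower in libraries with a large share, while *Mcm3* is nearly flat, and the genotypes are mixed along each trend except that all knockout squares of *Mcm3* lie above its circles.

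Other genes of replication and of the G1/S transition were followed in a second list of 73 genes, of which 71 were tested. *Recql4* and *Pold4* had too few reads. None of the 71 passed an adjusted p-value of 0.25, and 38 were above and 33 below 0, with a median log2 fold change of 0.03. DESeq2 and limma-voom called none of them either. The only gene with an unadjusted p-value under 0.05 was *Rbl2*, which encodes the pocket protein p130 that represses E2F targets in resting cells. It stood at 7.24, 12.04 and 12.2 CPM in wild type and 6.22, 5.20, 4.86 and 8.47 CPM in knockout mice, with 1 knockout mouse inside the wild type range (log2 fold change −0.76, standard error 0.35). Its adjusted p in the edgeR test was 0.999. Values of wild type and knockout mice were separate for 3 of the 71, 4.23%, against 5.16% of all genes. *Chaf1a*, the large subunit of CAF-1, stood at 77.2, 72.5 and 61.9 CPM and 85.3, 80.2, 83.3 and 101.2 CPM (log2 fold change 0.31, standard error 0.15). *Nasp*, a histone chaperone, stood at 201.4, 214.5 and 195.0 CPM and 242.9, 232.7, 234.3 and 258.6 CPM (log2 fold change 0.25, standard error 0.12). *Tipin*, a fork protection factor outside the naming rule and chosen after its values were seen, was the third, at 123.7, 128.8 and 131.0 CPM and 168.3, 136.5, 136.6 and 150.5 CPM (log2 fold change 0.21, standard error 0.13). For the remaining named genes of the list the ranges overlapped. The cell cycle inhibitor *Cdkn1a* stood at 35.5, 35.6 and 17.8 CPM in wild type and 41.6, 33.9, 42.6 and 44.3 CPM in knockout mice (log2 fold change 0.45, standard error 0.23). Without wild type replicate 3 its log2 fold change was 0.19. *Shmt1*, an enzyme of the folate cycle that feeds thymidylate synthesis, stood at 61.6, 36.1 and 58.5 CPM and 82.2, 73.4, 57.0 and 50.8 CPM (log2 fold change 0.34, standard error 0.21). Without wild type replicate 2 this was 0.13.

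Markers of other cell types were summed in the same libraries. The 10 markers listed for neutrophils summed to between 7989 and 11139 CPM in wild type and between 9071 and 25203 CPM in knockout mice, the highest being knockout replicate 3. *S100a8* and *S100a9* led this sum, with wild type means of 3398 and 3170 CPM, and *Cxcr2* had 11.5 CPM. Granule genes such as *Ltf*, *Camp* and *Ngp* are in the list, so it is not a measure of mature cells alone. Of 12 erythroid markers, 10 were detected, with 376.2 to 688.8 CPM in wild type and 369.2 to 628.1 CPM in knockout mice, and *Hba-a1* and *Hbb-bs* were listed at 0 in every mouse. The 7 B cell markers summed to between 70.0 and 201.4 CPM and between 92.1 and 327.6 CPM. The 6 T and NK cell markers found in the files summed to between 394.8 and 449.3 CPM and between 336.9 and 443.2 CPM. The 6 macrophage markers summed to between 292.9 and 361.5 CPM in wild type and between 204.2 and 256.7 CPM in knockout mice, without overlap. *Vcam1* led this sum, with means of 188.0 CPM in wild type and 148.5 CPM in knockout mice. *Vcam1*, *C1qa*, *C1qb*, *C1qc* and *Mrc1* were each separate between the genotypes, as were 5.16% of all genes. *Adgre1* was level, with means of 9.75 and 9.67 CPM. The 11 progenitor markers summed to between 9277 and 11603 CPM and between 8320 and 11102 CPM. *Mpo* led this sum, with means of 5758 and 5899 CPM, and *Nkg7* led that of the T and NK cell markers, with means of 293.5 and 295.1 CPM. Such sums mostly follow their highest genes. In bulk RNA fewer cells of a type and less RNA per cell cannot be told apart, and what part these cells had in the replication genes was not tested. The 18 genes listed as mitosis markers, among them *Mki67*, summed to between 2758 and 2993 CPM in wild type and between 2820 and 3006 CPM in knockout mice, and none of the 18 passed the test.

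Exons of 15 of the 42 genes overlap exons of another annotated gene in GENCODE M21, 13 of them on the opposite strand. The strand that was counted is not given in the sources used here, so the reads of these genes are less certain. Among the 27 genes with no such overlap, 15 were above and 12 below 0, with a median log2 fold change of 0.05.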

How the data were processed

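Libraries were made from total RNA with a QuantSeq 3′ kit and oligo-dT priming, and 75 bp single reads were sequenced. Per the methods, they were aligned to GRCm38 with STAR 2.4.2a, which also counted them on the Ensembl GTF version 84. The deposited counts per mouse are raw, not normalized, and cover 25033 gene symbols. Symbols and tally rows are of the form that htseq-count gives, so the tool and the annotation behind these counts are uncertain. The 5 tally rows of each file were left out. Reads on no gene made up between 27.0% and 31.6% of each library, and ambiguous reads between 1.99% and 2.40%. A level of 3 reads corresponds to between 0.561 and 0.840 CPM on the TMM scale, a floor that covers counting error only.

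Genes were filtered with filterByExpr and scaled by TMM in edgeR 4.0.16 (R 4.3.3), and the 11265 genes kept were tested with its robust quasi-likelihood test and Benjamini-Hochberg adjustment. The standard error was the size of the log2 fold change divided by the square root of F, and the interval used the t quantile of the fit's degrees of freedom. DESeq2 1.42.0 and limma 3.58.1 were alternatives. The test was tested on simulated counts of this comparison: at an adjusted p under 0.25 it recovered 76 of 100 genes changed by 1 and 98 of 100 changed by 2 on the log2 scale among 11128 genes, with 49 false calls.

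The members and lists were chosen with earlier results of these data known, so no test over a list was run. Of the 42 genes, values in each mouse are given, in each role, for the gene with the smallest p-value and the gene with the largest change, for genes with an unadjusted p under 0.05 or no overlap, for *Pcna*, *Mcm2*, *Tyms* and *Rrm2*, and, from the second list, for the 5 genes with the smallest p-values. Other genes are named by their fitted change.

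Same-numbered mice were not paired: the correlations of their deviations from the genotype means were −0.02, −0.19 and −0.14. Sampling noise was exceeded between any 2 libraries of the same genotype. Gene coordinates are from GENCODE M21 and promoter sequences from RefSeq, both on GRCm38.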

Additional observations from a re-analysis of the deposited data

Results flagged for a closer look

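Among 62 results, 6 had 1 knockout mouse set apart from the remaining 3. For independent results chance would give about 1 in 20, or 3.1. These were not independent, since 4 of the 6 are Y-linked genes of the same mouse, looked at to describe it. The 6 can therefore not be set against 3.1. Knockout replicate 4 had the lowest *Gins1*, at 15.7 CPM where the rest of the knockout mice had 18.3 to 18.7 CPM, and the highest summed erythroid markers, at 628.1 CPM against 369.2 to 403.2 CPM. Knockout replicate 3 had 104.5 CPM of *Ddx3y*, 35.7 CPM of *Eif2s3y*, 37.0 CPM of *Uty* and 8.78 CPM of *Kdm5d*, 4 Y-linked genes at 0 to 0.777 CPM in the other knockout mice. Without this mouse none of the 42 replication genes passed an adjusted p of 0.25, and the median log2 fold change was 0.05.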

How the results depend on the processing

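In 16 other fits none of the 42 replication genes and none of the other 71 passed an adjusted p of 0.25. The median log2 fold change of the 42 genes ran from 0.03 to 0.09, and the number of genes below 0 from 13 to 20. The number called over all genes, 2 as reported, was 41 with no filter on low counts, 21 with DESeq2, 1 with at least 10 reads in every mouse, 1 with the replicate number as a block and 8 with the *Rn45s* share as a covariate. It ran from 2 to 7 when each mouse was left out in turn, with 7 without wild type replicate 1 and 4 without knockout replicate 1. The replicate block changed the call of no replication gene, and *Lig1* was at 0.31 (unadjusted p = 0.107 in the edgeR test). Between 0 and 8 of the 42 genes changed sign in each fit, with 7 under the block. All that did in any fit but *Cdc6*, *Gins2* and *Rpa3* had a reported change under 0.10 in size. Among the genes given mouse by mouse, the sign changed for *Mcm2* without wild type replicate 2, within a range of −0.19 to 0.045 over the omissions, and for *Rpa3* without wild type replicate 3, at 0.36, within −0.80 to 0.36. The number of the 42 genes with an unadjusted p under 0.05 was 4 without wild type replicate 2 (*Lig1*, *Pole2*, *Rfc1* and *Rfc5*, 9.52% against 3.86% of all genes), 3 with the *Rn45s* covariate (*Lig1*, *Rfc1* and *Rfc5*, 7.14% against 4.82%) and 0 under the block (2.55% of all genes). *Hdgfl2* stayed between −5.62 and −4.86 in the 15 fits that tested it and was not tested with at least 10 reads in every mouse. For these differences the cause was not tested. The replication genes under 20 CPM had a median standard error of 0.31, against 0.16 for those above. How much of this is depth and how much spread between mice was not tested.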

Other observations

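As a description of pattern, the 5 other genes whose level across the 7 mice, centred within genotype, most resembled the mean of the 42 replication genes were *Ddx46*, *Tubg1*, *Psip1*, *Lrba* and *Ell2*, among 6632 genes with a mean of at least 20 CPM. Their correlations ran from 0.963 to 0.982. With 7 mice and 6632 genes, values this high can arise by chance, so no link to the replication genes is read from them. *Psip1*, which encodes the HRP-2 paralog LEDGF/p75, stood at 82.5, 98.0 and 91.9 CPM in wild type and 77.2, 103.1, 95.1 and 102.9 CPM in knockout mice.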
